A study of Homo sapiens with 2 samples.

Results

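The genes described here encode the mTOR kinase, its partner proteins and the switch that controls it. They are 10 genes chosen by name, MTOR, RPTOR, RICTOR, MLST8, MAPKAP1, DEPTOR, AKT1S1, TSC1, TSC2 and RHEB, out of 19480 genes to which the deposited list gives a peak. Their peaks number 277 of 175546. RNA precipitated with the CREB coactivator CRTC2 (RIP, RNA immunoprecipitation) was set against input RNA in HCCLM3, an established human hepatocellular carcinoma line of WT genotype. There was 1 RIP library and 1 input library, and neither had a replicate. The study asked which transcripts CRTC2 binds, in connection with condensates that it forms with the m6A reader YTHDF2. No precipitation with a control antibody was available for analysis here, so RNA bound to CRTC2 and RNA carried over with the beads cannot be told apart.

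MTOR is a serine/threonine kinase that works in a pair of complexes. In mTORC1 it is joined by RPTOR (raptor) and drives protein, lipid and nucleotide synthesis when amino acids and growth factors are present. In mTORC2 it is joined by RICTOR and phosphorylates AKT and related kinases. TSC1 and TSC2 form a GTPase-activating complex that switches off the small GTPase RHEB, the direct activator of mTORC1. In liver these complexes set the balance between lipid synthesis and autophagy, and AKT signalling is often raised in hepatocellular carcinoma.

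A peak is a stretch where the authors' peak caller found more RIP than input reads. Its fold is their ratio of RIP over input at the summit, the highest point of the peak, with a pseudocount of 1 on both sides. Fold, p and q are the authors' values per peak, used only for description and for ranking inside the list. The RIP fragments at a summit and the input level beneath it, in fragments scaled to the RIP library, were recovered from the fold and the p. The range after a fold is its exact Poisson 95% interval, computed from the RIP fragments with the input level held fixed, and covers counting error only. A peak is called below when its q is at most 0.05, that is when its −log10 q is at least 1.30. The deposited list gives no strand for the reads.

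Among the 7 members with a RefSeq promoter window, 3 had a narrow RIP peak that began within 30 bases of the start site, and these start sites are shown. Each line holds 150 bases on the gene's own strand, 120 before the start site and 30 from it on, taken from RefSeq (GRCh38.p14). Capitals mark the bases that lie inside the RIP peak. They are RPTOR at chr17:80544718-80544867 (plus strand), RICTOR at chr5:39074370-39074519 (minus strand) and TSC1 at chr9:132944587-132944736 (minus strand).
RPTOR: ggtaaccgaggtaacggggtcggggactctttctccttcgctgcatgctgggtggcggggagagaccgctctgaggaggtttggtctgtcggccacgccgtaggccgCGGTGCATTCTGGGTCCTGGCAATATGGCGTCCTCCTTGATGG
RICTOR: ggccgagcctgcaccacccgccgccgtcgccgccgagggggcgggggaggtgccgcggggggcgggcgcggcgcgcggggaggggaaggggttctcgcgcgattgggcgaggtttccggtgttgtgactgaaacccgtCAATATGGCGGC
TSC1: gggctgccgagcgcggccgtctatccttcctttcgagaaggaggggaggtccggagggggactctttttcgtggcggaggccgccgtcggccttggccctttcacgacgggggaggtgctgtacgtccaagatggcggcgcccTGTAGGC

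The RPTOR peak ran from 13 bases before the start site to base 34 after it (chr17:80544825-80544871). It held 4 RIP fragments at its summit, against an input level of 0.432, which gave a fold of 3.49 (1.46 to 7.85). The RICTOR peak ran from base 19 to base 89 (chr5:39074311-39074381), with 5 RIP fragments over an input level of 1.27 which gave 2.65-fold (1.16 to 5.59). The TSC1 peak ran from base 24 to base 81 (chr9:132944536-132944593), with 2 RIP fragments over an input level of 0.236 and a fold of 2.43 (1.01 to 6.66). None of these peaks was called. TSC2 also had a peak just after a start site, from base 42 to base 105, at 1.84-fold (0.941 to 3.33), with 9 RIP fragments over an input level of 4.44. The peak over the start of MTOR was 6475 bp wide and rested on 1 RIP fragment. AKT1S1, which has no RefSeq window here, had a peak 20 bp from an annotated start site (chr19:49877251-49877335), with 14 RIP fragments over an input level of 6.97 and 1.88-fold (1.09 to 3.07).

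CRTC2 acts on DNA through CREB, whose textbook site is TGACGTCA, so these letters were looked for on both strands of the RefSeq promoter windows, which run from 250 bases before a start site to 50 after it. The table holds 8 windows for 7 of the members and none for MLST8, AKT1S1 or DEPTOR. TGACGTCA stood in 0 of the 8 member windows and in 1.85% of all 35116 windows. Its shorter part TGACG, which the full site contains, stood in 4 of the 8 (RICTOR, TSC1, RHEB and 1 of the windows of TSC2) and in 24.6% of all windows. The letters AANATGGCG, the core of the site known for the factor YY1, were searched after the windows had been read. They stood in 3 of the 8 and in 3.19% of all windows, beginning at base 9 of RPTOR, base 20 of RICTOR and base 9 of TSC1, and can be seen in each of the printed sequences. A match is a description of the letters only.

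Peaks of these genes were divided between exons and introns and rested on few fragments. Of the 277 member peaks, 122 (44.0%, exact 95% interval 38.1 to 50.1) lay in the exon class, or in a UTR class within the transcript the list assigns, and are called exonic here, against 38.0% of the whole list. This interval and those of the other shares treat peaks as independent. The peaks came from 9 genes, 70 of them from RPTOR, and the intervals do not cover differences between genes. The exonic shares also depend on the definition, which leaves out UTR peaks outside the assigned transcript. With every exon and UTR peak counted by summit position, the member share was 47.1%. Of the whole list, the exon class held 30.4%, the 5′ UTR class 2.08% and the 3′ UTR class 13.8%. Exonic peaks of the members had a median fold of 2.28 (quartiles 1.84 and 2.87), against 1.94 (1.76 and 2.55) over all exonic peaks. A median of 3 RIP fragments stood at a member's exonic summit, against 4 in the whole list. A fold of at least 3 was reached by 28 of the 122 (23.0%), against 13.6% of all exonic peaks.

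Introns held 130 member peaks (46.9%, 40.9 to 53.0), against 26.6% of the whole list. Of these, 111 (85.4%) rested on 1 RIP fragment, much as in the whole list (85.8%), and none reached a fold of 3. The promoter class, which the annotation gives to any peak within 3000 bp of a start site before all other classes, held 23 (8.30%, 5.34 to 12.2), against 20.9%. The 3′ UTR class held 2 (0.722%), against 13.8% of the whole list. Another 25 peaks of the 3′ UTR class had their summits inside the spans of 6 members but were assigned to neighbouring genes, and they are described below.

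Called peaks were few. Of the 277 member peaks 4 were called (1.44%, 0.395 to 3.66), against 1.63% of all peaks in the list. They lay in RICTOR, RPTOR and TSC1, so 3 of the 8 members with an exonic peak had a called exonic peak, against 12.5% of the 10735 genes with an exonic peak. Genes with more exonic peaks had a called one more often. Among the 609 genes with at least 17 exonic peaks, the number in TSC1, 52.4% had a called exonic peak, against 3 of the 4 members with as many (MTOR, RPTOR, RICTOR and TSC1). The limit of 17 was set after the members' values were seen.

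**Figure D1:**
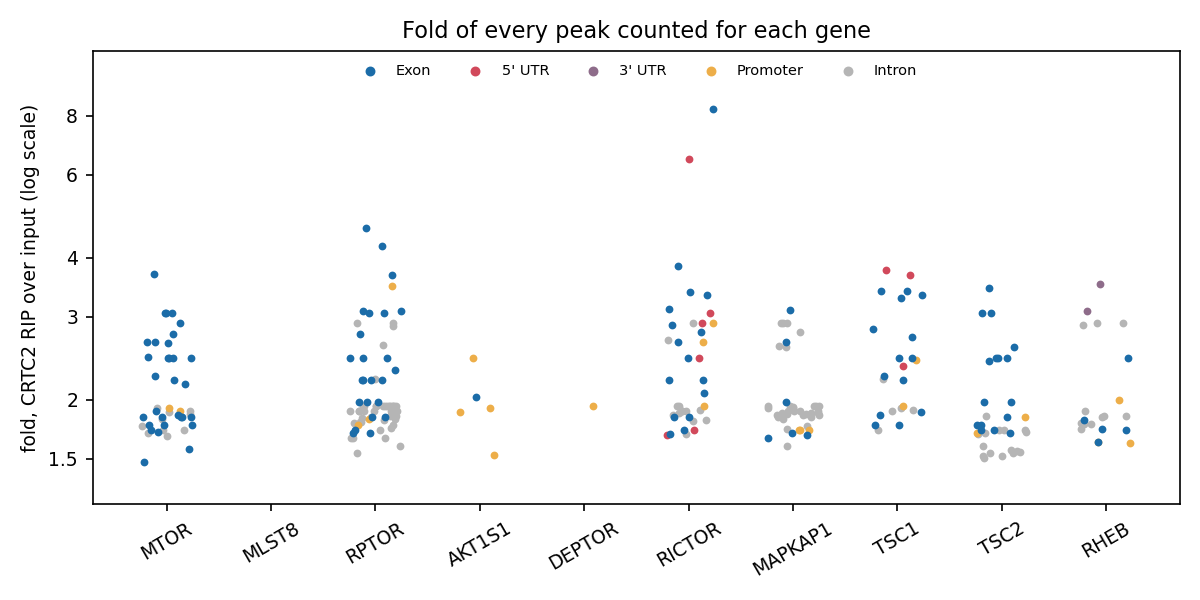
Fold of RIP over input (log axis) of every peak counted for each of the 10 genes, coloured by annotation class, each point being 1 peak. RICTOR has the highest points, at 8.26 and 6.47, MLST8 has no point and DEPTOR has 1.

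The kinase MTOR (chr1:11106535-11262551, hg38) carried 43 peaks, 31 of them exonic. They covered 31 of the 58 exons of its transcript, between exon 2 and exon 57, and by their number MTOR ranked 74 of 10735 genes. The folds of these 31 exons lay between 1.48 and 3.69 with a median of 2.21. No MTOR peak was called. The highest, in exon 43 (chr1:11127974-11128061), held 4 RIP fragments over an input level of 0.354 and had a fold of 3.69 (1.54 to 8.31) with a −log10 q of 0.510. Exons 2, 10 and 37 followed at 3.06 (1.28 to 6.88), each with 4 RIP fragments over an input level of 0.634. The deepest MTOR summit was in exon 6, with 8 RIP fragments over an input level of 3.17 and a fold of 2.16 (1.07 to 4.02). The intervals of all these exons overlapped, so no exon of MTOR stood apart from the others beyond counting error. All 10 intron peaks rested on 1 RIP fragment.

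MLST8, a small subunit that both complexes share and that binds the kinase domain, had no peak by the assignment. Its span (chr16:2205454-2209453) nevertheless held the summits of 2 peaks that the list assigns to the promoter of its neighbour BRICD5. The first (chr16:2208536-2208615) held 15 RIP fragments over an input level of 5.70, with a fold of 2.39 (1.40 to 3.84). The second (chr16:2209097-2209254) held 7 RIP fragments over an input level of 2.30, with a fold of 2.43 (1.16 to 4.68). Neither was called. In the RefSeq annotation MLST8 is the only gene whose span covers either summit.

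RPTOR, the scaffold that brings substrates to mTORC1, is the longest of the genes (chr17:80544838-80966368) and carried the most peaks, 70. Its 24 exonic peaks lay in 22 of the 30 exons of one transcript and in exons 15 and 16 of another with 34 exons. Their median fold was 2.26, from 1.70 to 4.64, on a median of 4 RIP fragments. The called peak lay in exon 3 of 30 (chr17:80643737-80643839). It held 4 RIP fragments, over an input level of 0.0786, and had a fold of 4.64 (1.94 to 10.4) and a −log10 q of 2.45. Exon 16 of 30 had 5 RIP fragments over an input level of 0.412 and a fold of 4.25 (1.86 to 8.97), and exon 17 had 5 over 0.634 and a fold of 3.67 (1.61 to 7.75). Neither was called, and the intervals of these exons overlapped that of exon 3. Of the 43 intron peaks 37 rested on 1 RIP fragment.

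AKT1S1 encodes PRAS40, an inhibitor of mTORC1 that AKT phosphorylates. It is a short gene (chr19:49869033-49878356) with 5 peaks, of which 1 was exonic. That peak, in exon 4 of 5, held 10 RIP fragments over an input level of 4.44, with a fold of 2.02 (1.07 to 3.57). Its other 4 peaks were in the promoter class, and the highest reached 2.45 (0.991 to 5.98) on 3 RIP fragments over an input level of 0.634. The summit of that highest peak also lies in the span of TBC1D17, and without strand the genes cannot be told apart there. The −log10 q was 0 for all 5. DEPTOR, an inhibitor that binds MTOR in both complexes, had 1 peak in the promoter class and none in an exon. It spanned 521747 bp, rested on 1 RIP fragment over the lowest input level in the list, 0.0298, and had a fold of 1.94, so no enrichment within the DEPTOR transcript was detectable at this depth.

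RICTOR, the subunit that defines mTORC2, carried the highest folds of the 10 genes. Of its 38 peaks (gene span chr5:38937920-39074399), 22 were exonic, with a median fold of 2.55 and a range of 1.68 to 8.26. The highest lay in exon 27 of 39 (chr5:38954753-38954828), where 9 RIP fragments stood over an input level of 0.210. Its fold was 8.26 (4.23 to 14.9) with a −log10 q of 7.28, and ranked by each gene's highest exonic fold RICTOR was number 12 of 10735 genes. The second called peak (chr5:39002511-39002617) held 7 RIP fragments over an input level of 0.236, with a fold of 6.47 (3.09 to 12.5) and a −log10 q of 4.04. It is annotated as 5′ UTR but lies 71782 bp downstream of the RICTOR start site, as do the other 5 peaks of that class at 53269 bp or more.

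Exons near exon 27 of RICTOR had lower folds, not all of them beyond counting error. Exon 25 had 4 RIP fragments over an input level of 1.90 and a fold of 1.72 (0.720 to 3.88). Exon 28 had 1 RIP fragment over an input level of 0.183 and a fold of 1.69 (0.867 to 5.56). The upper end for exon 25 lies below the lower end for exon 27, whereas that for exon 28 does not. Exon 29 reached 3.39 (1.37 to 8.27) with 3 RIP fragments, and exon 31, the widest of these at 772 bp, reached 3.85 (1.83 to 7.41) with 7. The peaks of the 5′ UTR class on either side of the 6.47-fold peak had 2.45-fold (0.991 to 5.98) on 3 RIP fragments and 1.68-fold (0.768 to 3.37) on 6, and both intervals overlapped its own. None of these was called, and no exon before exon 12 had a peak of the exon class.

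MAPKAP1 encodes SIN1, the mTORC2 subunit that presents substrates to the kinase. Of its 41 peaks (chr9:125437394-125707208), 32 lay in introns and 6 in exons, namely exons 6 to 11 of 12. The exonic folds lay between 1.66 and 3.10 with a median of 1.84, on a median of 7 RIP fragments. The highest exonic peak, in exon 8 (chr9:125506369-125506641), held 8 RIP fragments over an input level of 1.90, with a fold of 3.10 (1.54 to 5.78) and a −log10 q of 0.0463. The highest −log10 q in the gene, 0.893, belonged to intron peaks with 2 RIP fragments over the lowest input level and a fold of 2.91. None of its peaks was called, and 25 of the intron peaks rested on 1 RIP fragment.

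**Figure D2:**
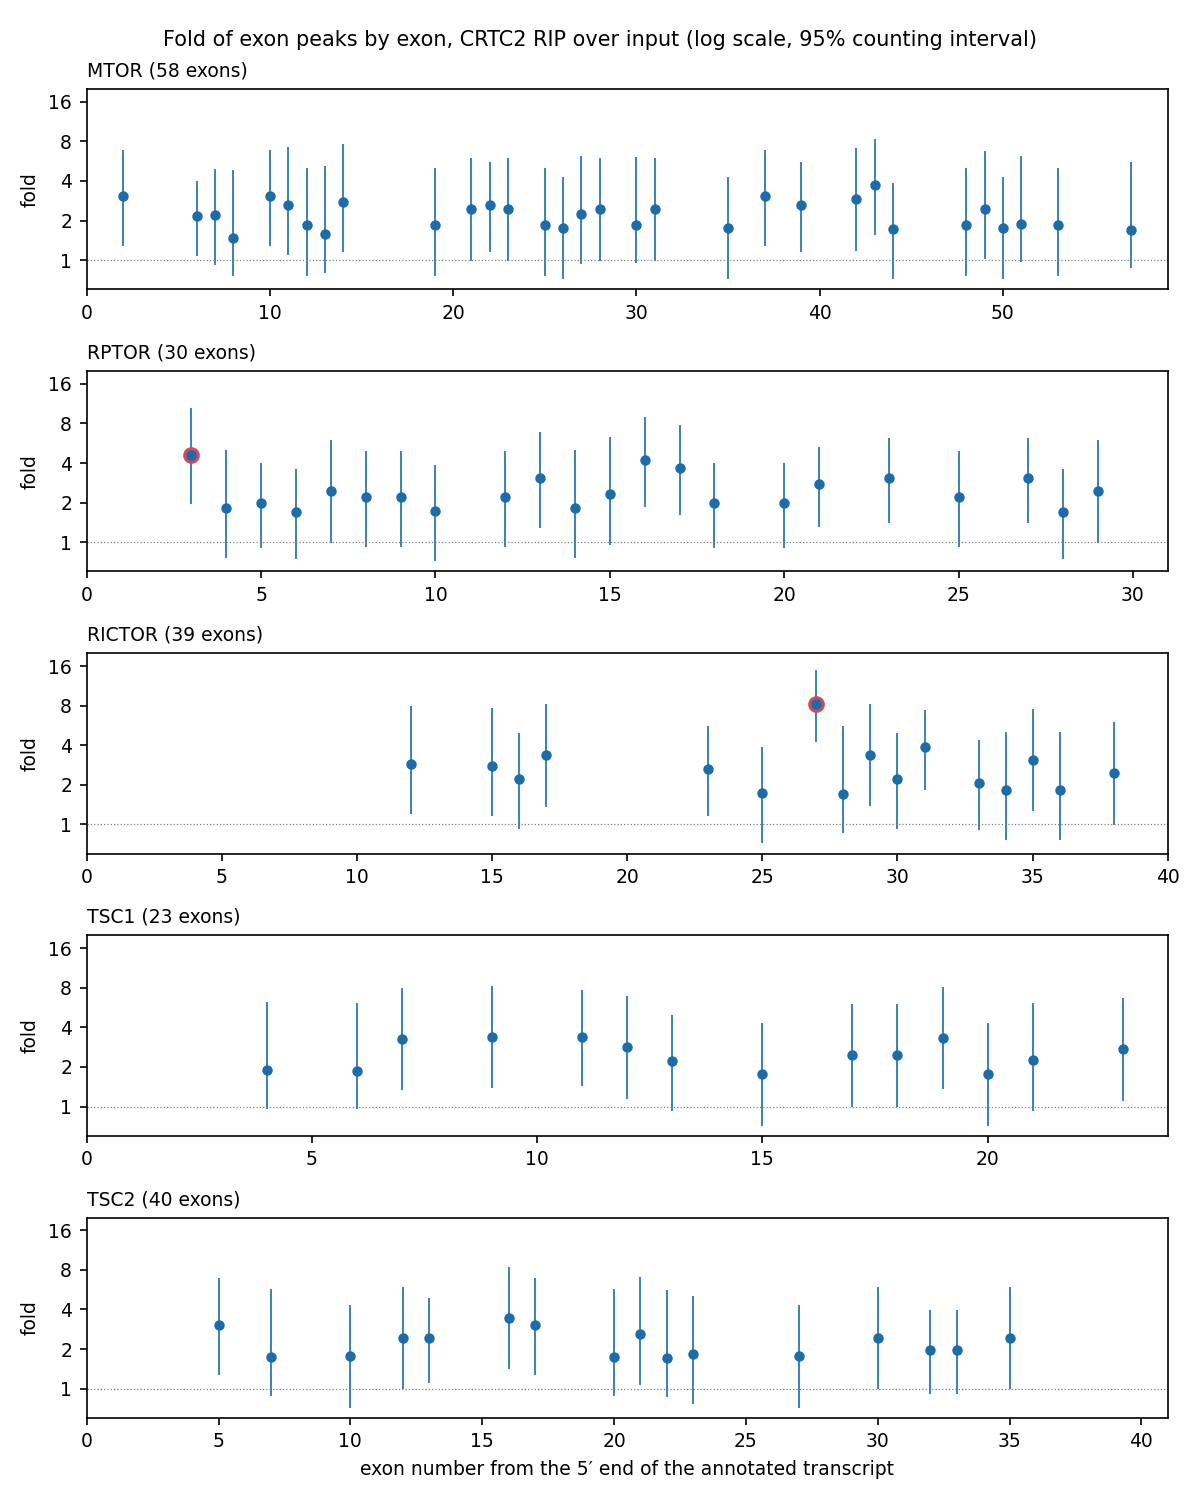
Fold of RIP over input (log axis) of exon-class peaks against exon number from the 5′ end, in 1 transcript each of MTOR, RPTOR, RICTOR, TSC1 and TSC2. Bars are 95% counting intervals and red points mark peaks at q of at most 0.05. Exon 27 of RICTOR (8.26) and exon 3 of RPTOR (4.64) are red, and most other intervals overlap. Peaks of the 5′ UTR class are not drawn, among them the called peaks of RICTOR at 6.47 and TSC1 at 3.78.

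TSC1 encodes hamartin, which stabilises TSC2. It carried 24 peaks (chr9:132891349-132945378), of which 17 were exonic with a median fold of 2.45 and a range of 1.76 to 3.78. They rested on a median of 3 RIP fragments over a median input level of 0.334, the lowest median of the 8 members with an exonic peak. The called peak, of the 5′ UTR class (chr9:132935008-132935058), held 3 RIP fragments over an input level of 0.0589, with a fold of 3.78 (1.53 to 9.22) and a −log10 q of 1.59. A second peak of that class held 3 over 0.0884 and had a fold of 3.68 (1.49 to 8.97), and its −log10 q of 1.09 fell short. Exons 9 and 11 followed at 3.40 and exon 19 at 3.34. The call in TSC1 rested on 3 fragments, and its interval overlapped those of all the other exonic peaks of the gene.

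TSC2 encodes tuberin, which carries the GTPase-activating domain. Its 34 peaks (chr16:2047985-2089491) divided into 16 in exons, 16 in introns and 2 in the promoter class, and at 0.819 peaks per kb it was the most densely covered of the 10 genes. The exonic folds lay between 1.70 and 3.46 with a median of 2.20. The highest, in exon 16 of 40 (chr16:2065562-2065665), held 3 RIP fragments over an input level of 0.157, with a fold of 3.46 (1.40 to 8.44) and a −log10 q of 0.637. No TSC2 peak was called. All 16 intron peaks rested on 1 RIP fragment.

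RHEB had the deepest peaks and among the lowest folds. Its 5 exonic peaks (gene span chr7:151466012-151519895) held between 14 and 18 RIP fragments over input levels of 6.34 to 9.50. Exon 2 of 8 (chr7:151490925-151490985) held 17 over 6.34, with a fold of 2.45 (1.49 to 3.85) and a −log10 q of 0.169. Exon 4 held 18 over 9.50, a fold of 1.81 (1.11 to 2.80), and exon 8 held 14 over 8.24, a fold of 1.62 (0.937 to 2.65). The peak with the most fragments of any member lay at the RHEB promoter, with 20 RIP fragments over an input level of 9.50 and a fold of 2.0 (1.26 to 3.04). The highest fold that the assignment counts for RHEB, 3.53 (1.68 to 6.80) on 7 RIP fragments over an input level of 1.27, belongs to a peak whose summit lies inside the span of PRKAG2, a neighbouring gene that encodes an AMPK subunit. The highest −log10 q within the gene was 0.893, at an intron peak of 2 RIP fragments with a fold of 2.91.

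Ordered by the highest exonic fold, the genes ran RICTOR 8.26, RPTOR 4.64, TSC1 3.78, MTOR 3.69, TSC2 3.46, MAPKAP1 3.10, RHEB 2.45 and AKT1S1 2.02. The intervals of neighbours in this order overlapped in every case. The interval of RICTOR lay above those of RHEB (1.49 to 3.85) and AKT1S1 (1.07 to 3.57). The median of the 8 values was 3.58, against 2.83 over all 10735 genes with an exonic peak (quartiles 2.21 and 3.58). It was 4.28 over the 609 genes with at least 17 exonic peaks (3.67 and 4.90). Of the 8, only RICTOR (8.26), RPTOR (4.64), TSC1 (3.78) and MTOR (3.69) had that many, so the median of the 8 is not like that of the 609.

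Input level was highest in MAPKAP1, RHEB and AKT1S1, the last genes in that order, and did not run in the opposite order among the others. Its median over exonic summits was 8.24 in RHEB, 4.44 in AKT1S1, 2.85 in MAPKAP1, 1.27 in RPTOR, 0.634 in each of MTOR, RICTOR and TSC2, and 0.334 in TSC1. This is the level set beneath the summits and not the level of a whole transcript. Fewer cells with a transcript cannot be told apart from less RNA per cell. An input fragment counted as 0.634, and 81 of the 122 exonic member peaks stood over whole multiples of it. Levels below it, such as the TSC1 median, are less than 1 input fragment and so are not a count of input at the summit. The called member peaks all stood over such levels, from 0.0589 to 0.236. Folds of the whole list also move with the input level. Among exonic peaks over an input level of 6 or more, the 5 member peaks, all in RHEB, had a median fold of 1.73, against 1.64 over the whole list. Between 0.2 and 1 the median was 2.45 over 50 member peaks, against 2.40 over the whole list. Below 0.2 it was 2.76 over 23 member peaks, on a median of 2 RIP fragments, against 1.94 on a median of 1. The whole list holds 2500 exonic peaks wider than 10 kb and the members none, so these sets are not alike. Between 1 and 3 the median was 2.02 over 38 member peaks, against 2.07. Between 3 and 6 it was 1.83 over 6 member peaks, against 1.87.

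**Figure D3:**
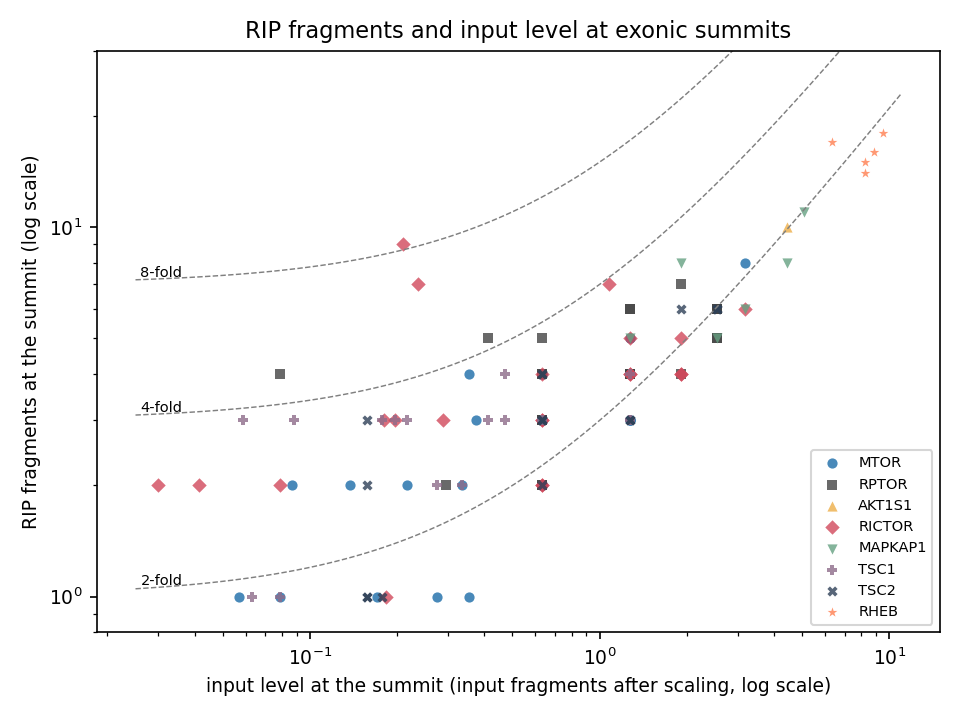
RIP fragments at each exonic summit against the input level there (both log axes), 1 point per peak and a colour per gene; dashed lines mark folds of 2, 4 and 8. RHEB lies at the deep end near the 2-fold line, and at low input the RICTOR peak at 8.26 lies above the 8-fold line and the one at 6.47 between the 4-fold and 8-fold lines.

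Which peaks belong to a gene depended on the annotation. For 148 of the 277 member peaks (53.4%) the nearest start site was that of another gene, against 23.6% of the whole list. The assignment used here follows the gene named in the exon or intron annotation, and falls back on the nearest start site for UTR and promoter peaks. By position, 312 summits lay inside the spans of the 10 genes. Of these, 273 were also counted by the assignment, 39 were counted for other genes, and 4 counted peaks lay outside the span, 3 of RHEB and 1 of RICTOR.

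The 39 peaks counted for other genes include the 3′ ends of the transcripts. Those of the 3′ UTR class numbered 25 in 6 members, with a median fold of 2.21 (quartiles 1.98 and 2.58) on a median of 4 RIP fragments, and none was called. TSC1 had 10 of them, counted for AK8, with folds of 1.49 to 2.99. RICTOR had 7, counted for OSMR, a cytokine receptor gene whose span overlaps that of RICTOR, with folds of 1.98 to 4.50. The highest (chr5:38938372-38938743) held 5 RIP fragments over an input level of 0.334, with a fold of 4.50 (1.97 to 9.50) and a −log10 q of 1.24. RPTOR had 3 (1.98 to 2.58), MAPKAP1 3 (1.84 to 2.45), MTOR 1 (2.21) and RHEB 1 (2.28). In all 6 the highest 3′ UTR fold was below the highest exonic fold of the same gene, but the intervals of these peaks overlapped. Each gene also had more exonic peaks than 3′ UTR peaks from which the highest was taken. The medians did not follow this order. RICTOR had a 3′ UTR median of 3.06 against an exonic median of 2.55, and RHEB 2.28 against 1.73. MAPKAP1 had 1.98 against 1.84, RPTOR 2.29 against 2.26 and MTOR 2.21 against 2.21, while TSC1 was lower at 1.95 against 2.45. The 7 RICTOR summits also lie in the span of OSMR, and since the list carries no strand, reads of these overlapping genes cannot be told apart there. The 10 TSC1 summits lie in the span of no other gene.

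**Figure D4:**
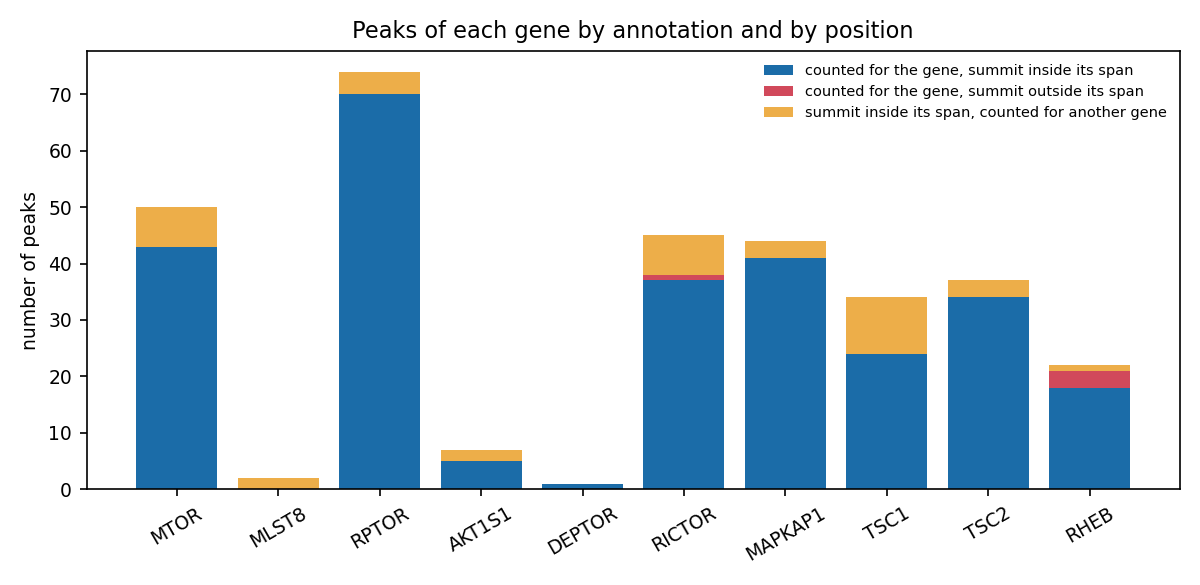
Number of peaks for each of the 10 genes: counted for the gene with the summit inside its span, counted but outside the span, and inside the span but counted for another gene. TSC1 has 10 of the last kind, MTOR and RICTOR 7 each, and MLST8 has 2 of that kind and no other.

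Wide peaks carried little information on these genes. There were 23 member peaks wider than 10 kb, none of them exonic, and they covered 1.08 of the 1.24 Mb in all member peaks. They rested on at most 2 RIP fragments and had a median fold of 1.94. The median width of a member peak was 80 bp, against 101 bp in the whole list.

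The remaining genes of the pathway, 70 in number, were counted by group. An exonic peak was found in 57 of them and a called one in 5 of the 57, against 12.5% of all genes with an exonic peak. The median of their highest exonic folds was 2.83, against 2.83 over all genes. Of the further TSC and RHEB genes, TBC1D7, the accessory subunit of the TSC complex, and RHEBL1, a RHEB paralog, had peaks but none in an exon. All 5 further mTORC2 and assembly genes had an exonic peak and none was called, the highest being 4.25 in TELO2 (a chaperone of the kinase family), 3.09 in TTI1 and 2.78 in PRR5L. In the Rag, Ragulator and folliculin group, which senses amino acids at the lysosome, 10 of 13 had one. FNIP1, a folliculin partner, was the gene with called exonic peaks there, 4 of them, up to 4.72 (1.97 to 10.6) on 4 RIP fragments. FNIP2 reached 3.67 and LAMTOR3 3.64, and LAMTOR3 had 1 called peak in a class not counted as exonic.

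In GATOR1, GATOR2 and KICSTOR, the complexes that relay amino acid supply to the Rag GTPases, 10 of 12 genes had an exonic peak and none was called (MIOS 4.11, NPRL3 3.75 and ITFG2 3.71 at most). Of the amino acid and stress sensors 4 of 8 had one and none was called, with SESN2 highest at 3.67, SAMTOR at 3.24 and CASTOR2 at 2.55, and SESN3 and DDIT4L had no peak of any class. Among genes upstream of the kinase, called exonic peaks were found in PIK3CB, a catalytic subunit of PI3K, at 4.78 (2.09 to 10.1), and in INSR, the insulin receptor, at 4.55 (1.90 to 10.2). IRS1 and PIK3R1 each reached 4.20 without a called exonic peak, and IRS1 had 1 called peak in a class not counted as exonic. Of 17 substrates and effectors 15 had an exonic peak and 2 a called one, ULK1, the autophagy kinase that mTORC1 inhibits, at 4.71 (2.06 to 9.95) and LPIN1, a phosphatidate phosphatase, at 3.76 (1.52 to 9.19). SGK1, an mTORC2 substrate, reached 3.71 without a call, LARP1, a binding protein of mRNAs that mTORC1 controls, had 1 called peak in a class not counted as exonic, and TFEB, a lysosomal transcription factor that mTORC1 phosphorylates, had no peak.

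The list gives no library totals. Of 16 hepatocyte and hepatoma markers, 15 had a peak and 9 an exonic one, with SERPINA1 the one without a peak. Of 5 blood markers 3 had a peak and 1 an exonic one, and of 6 endothelial and stromal markers 3 had a peak and all 3 an exonic one. A peak marks RIP over input and not the level of a marker, so the labelled cell type could not be checked further from this list.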

How the data were processed

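RNA from CRTC2 RIP and from input of HCCLM3 cells was extracted with a Magna RIP kit and made into stranded total RNA libraries, per the labels' protocols. The submitters' processing notes name HISAT2, MACS2 and the build hg38, without version or setting. The authors deposited 1 list of annotated peaks from RIP over input. Per the file headers it holds a score and a fold enrichment, a linear ratio, for each peak. The −log10 p and −log10 q of each peak were also deposited by the authors, under spoiled headers, and were identified by their place and values; no peak had a −log10 p below 1.30, and −log10 q was 0 for 88.8% of peaks. The deposited score was not used, and peak width, summit offset, distance to the start site and annotation class are other values the authors deposited.

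Genes were assigned by the identifier in the exon or intron annotation, otherwise by the deposited gene identifier. RIP fragments and input level were solved from fold = (fragments + 1) / (level + 1) and the p as the Poisson tail. Both were met by a whole number of fragments within 0.001 for 100% of peaks, against 4.00% after shuffling p. It was the only one for 265 of the 277 member peaks, and otherwise the closest was taken. On 5000 simulated peaks 100% were recovered. These were drawn from the same formula. Their input levels were lower, relative to the fragments, than those of some peaks of RHEB, AKT1S1, MAPKAP1, RICTOR, RPTOR and TSC2. The simulation therefore does not cover those peaks. The lowest input level was 0.0298, and 1 input fragment counted as 0.634. Of 22104 assigned transcripts, 20397 (92.3%) lay inside the RefSeq GRCh38.p14 span of their gene, from which spans were taken. The symbol MLST8 was matched through RefSeq.

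All 10 members were named, each with its highest peak by fold and by −log10 q and every peak at q of at most 0.05. Other pathway genes were named where called or among the 3 highest of their group. Some results on genes upstream of the kinase are not reported here. Other exons, neighbours and 3′ UTR peaks were chosen after their values were seen. Members and lists were chosen with earlier results of these data known. Since RIP and input had 1 library each, no test was run across genes. Intervals of shares are exact Clopper-Pearson and take the peaks of a gene as independent. Python 3.11.15, numpy 2.4.6, pandas 2.3.3 and scipy 1.17.1 were used.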

Additional observations from a re-analysis of the deposited data

How the results depend on the processing

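The 277 member peaks became 4 at q of at most 0.05, 4 at a fold of at least 4, 87 at a −log10 p of at least 3, 43 with at least 5 RIP fragments, 141 when the nearest start site assigned the gene and 129 when both assignments had to name the same gene. They were 230 without peaks over 1 kb and 312 by summit position. Members with a peak, 9, became 3 at that q and 2 at that fold. The median fold of member peaks, 1.90, became 5.55 at that q, 5.55 at that fold, 2.88 at that p, 2.0 with at least 5 fragments and 1.88 without peaks over 1 kb, each of which follows from the subset of peaks kept. The exonic share, 44.0%, became 100% at that q, 100% at that fold, 79.1% with at least 5 fragments, 52.2% without peaks over 1 kb, 34.0% by nearest start site and 29.5% where both agreed. By summit position, with every exon and UTR peak counted, it was 47.1%. The highest fold, 8.26 in RICTOR, became 6.47 by nearest start site, because the start site nearest to exon 27 is that of OSMR. All 64 values of single members under these alternatives lay within the counting interval of the reported one. This could hardly have come out otherwise. A filter that keeps a member's highest peak returns the same fold, and a member left without a peak gave no value. It is therefore no measure of robustness. Depth limits every value: most summits hold few fragments and there is 1 library of each kind. No paired analysis was possible because each group holds 1 library.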
